A study of Mus musculus with 9 samples.

Results

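The mitochondrial genome of the mouse is a small circular chromosome (MT) that carries genes for 13 mRNAs, 2 rRNAs and 22 tRNAs. The genes described here are those rows of the count table whose NCBI Gene identifier lies on chromosome MT in the RefSeq annotation of GRCm38, the assembly that mm10 names. There were 15 such genes among 27179 gene identifiers, comprising all 13 mRNAs and both rRNAs but 0 of the 22 tRNAs. By strand, 14 of the 15 lie on the + strand and 1, ND6, on the - strand.

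The counts come from RNA immunoprecipitation sequencing (RIP-seq), in which an antibody pulls a protein out of a lysate and the RNA bound to it is sequenced. The protein was UPF1 in its phosphorylated form (p-UPF1). The question was which RNAs p-UPF1 associates with in B cells. All 9 libraries were made from wild-type splenic B cells, taken as the CD43- fraction of spleen and activated for 72 h with 10 ug/mL of anti-IgM antibody, 20 ng/mL of IL-4 and a CD40 stimulus at 5 ug/mL, which the labels give as CD40L and the methods as an anti-CD40 antibody. There were 3 input libraries, prepared from the lysate itself, 3 libraries of RNA precipitated with normal rabbit IgG, and 3 of RNA precipitated with an anti-p-UPF1 antibody. No group lacked the activation treatment. The methods give an adult age range for the mice of the study as a whole, which were age-matched and of both sexes, and do not say which ages or how many mice stand behind the RIP-seq libraries. They call the data points of the study's graphs independent biological replicates, but neither they nor the labels say whether the RIP-seq libraries of a group came from separate mice or cultures, so P values measure the spread between these libraries, which may be technical.

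Mitochondrial DNA is transcribed inside the organelle as long RNAs from both strands, which are cut into single rRNAs, tRNAs and mRNAs, often at the tRNAs that punctuate the genes. The mRNAs encode subunits of respiratory complexes I, III and IV and of the ATP synthase, and are translated inside the organelle on mitochondrial ribosomes. UPF1, an RNA helicase of the cytoplasm and nucleus, drives nonsense-mediated mRNA decay (NMD), a process that follows termination on cytoplasmic ribosomes, and its phosphorylation accompanies the recruitment of decay factors.

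Library totals ran from 17372510 to 24945286 counts, with the lowest totals in the IgG libraries. Counts were scaled by edgeR's TMM factors, which ran from 0.949 to 1.084, and are given as CPM, which are relative to library size. The replicate columns carry the letters A, B and C, used here only as names. Summed CPM of 6 B cell marker genes ran from 2400 to 2470 for p-UPF1, from 2490 to 2580 for IgG and from 3200 to 3220 for input. The 6 T cell markers summed to at most 1.68 CPM and the 5 natural killer cell markers to at most 3.73 CPM in any library. Of 6 erythroid markers, 5 were in the table and 3 of these were at 0 in input. The 6 macrophage and monocyte markers reached 142 to 154 CPM for input, 94.5 to 103 for IgG and 60.5 to 62.2 for p-UPF1. Of these, Adgre1, which encodes F4/80, had a mean of 131 CPM in input, and Cd68 had means of 14.4, 9.85 and 2.93 CPM for input, IgG and p-UPF1, while the other 4, Csf1r, Itgam, Lyz2 and Cd14, were at or below a mean of 0.309 CPM in every group. The part of other cell types in the values below was not tested. By the methods, a part of the cell lysate was kept as input and the rest was incubated with antibody on beads. Marker values of the 3 groups therefore compare fractions of lysate. Within a group, the number of cells of a type and their RNA per cell cannot be told apart in bulk libraries such as these.

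Sequence features of the genes bear on how their reads could be counted and are shown first, on GRCm38, as RefSeq gives them. Several mitochondrial coding sequences end without a full stop codon, since the gene supplies only a leading T and polyadenylation adds the rest. The last 30 bases of 5 coding sequences are shown, 5′ to 3′ on the coding strand, with the letters of the stop codon in capitals. COX3, ND4 and CYTB end in T alone, while COX1 and ND1 carry a whole stop codon, as do the other 8 mRNAs.
COX3, MT:9361-9390, + strand: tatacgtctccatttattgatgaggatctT
ND4, MT:11515-11544, + strand: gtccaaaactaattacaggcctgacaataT
CYTB, MT:15259-15288, + strand: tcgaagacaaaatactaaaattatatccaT
COX1, MT:6843-6872, + strand: gaggaaccaacctatgtaaaagtaaaaTAA
ND1, MT:3678-3707, + strand: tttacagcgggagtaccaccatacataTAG

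ND5 and ND6, neighbouring genes that encode subunits of complex I, are read from opposite strands and meet tail to tail. Their last 14 bases occupy the same positions, MT:13552-13565, and are in capitals in the last 60 bases of each coding sequence.
ND5, MT:13506-13565, + strand: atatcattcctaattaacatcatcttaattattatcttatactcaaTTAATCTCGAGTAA
ND6, MT:13552-13611, - strand: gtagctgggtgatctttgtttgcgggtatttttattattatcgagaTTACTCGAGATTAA
ND6 is the sole mRNA of the - strand, and its reads can be separated from RNA of the opposite strand only where counting uses strand. The library kit was directional, but whether the RIP-seq counting used strand is not stated, so sense and antisense RNA over ND6, and over every other gene here, cannot be told apart.

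Fragments of mitochondrial DNA are also found in the nuclear chromosomes. Aligning MT, which is 16299 bases long, to the nuclear chromosomes of GRCm38 gave 65 alignments, 10 of them at least 200 bases long at 90% identity or more. The longest, chr1:24611535-24616188 on the - strand, matched MT:6390-11042 at 99.94% identity with 2 mismatches, and spans the end of COX1, all of COX2, ATP8, ATP6, COX3, ND3 and ND4L, and most of ND4. A second copy at chr2:22587288-22590534 matched MT:4441-7699 at 97.36% identity, and another at chr4:80002330-80005204 matched MT:12488-15359 at 93.01%. A stretch inside COX3 is shown with its chr1 counterpart, and a stretch inside CYTB with its chr4 counterpart, with differing bases in capitals. The COX3 pair had 0 differing bases of 60 and the CYTB pair had 4.
COX3, MT:8968-9027: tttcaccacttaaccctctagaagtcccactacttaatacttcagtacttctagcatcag
chr1 copy, chr1:24613551-24613610, - strand: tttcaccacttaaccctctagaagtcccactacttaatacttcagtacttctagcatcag
CYTB, MT:14686-14745: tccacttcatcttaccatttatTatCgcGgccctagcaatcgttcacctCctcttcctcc
chr4 copy, chr4:80004530-80004589, + strand: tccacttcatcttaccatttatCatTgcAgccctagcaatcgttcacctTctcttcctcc

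The mRNAs fell into an abundant set and a scarce set in input, and the scarce ones were those with an exact nuclear copy of nearly every window of their sequence. For each gene, the share of its 75-base windows with an exact copy in a nuclear chromosome was counted. It was 100% for COX2, ATP8, ATP6, COX3 and ND4L and 98.9% for ND3, and none of these 6 exceeded a mean of 17.9 CPM per kb of gene in input. ND4 had 61.5% of windows shared and COX1 39.8%, and the share was 5.7% for ND2, 2.9% for mt-Rnr2, 1.7% for ND5 and 0.0% for ND1, ND6, CYTB and mt-Rnr1. These 9 genes lay between 588.5 (mt-Rnr1) and 5654 (COX1) CPM per kb in input. With 50-base windows the shares of COX1 and ND4 were 51.1% and 62.2%. Read length and the treatment of reads that map to several places are not stated, and the part of the nuclear copies in the counts was not tested. No annotated nuclear gene of the table overlapped a nuclear alignment by 100 bases of exon or more.

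**Figure D1:**
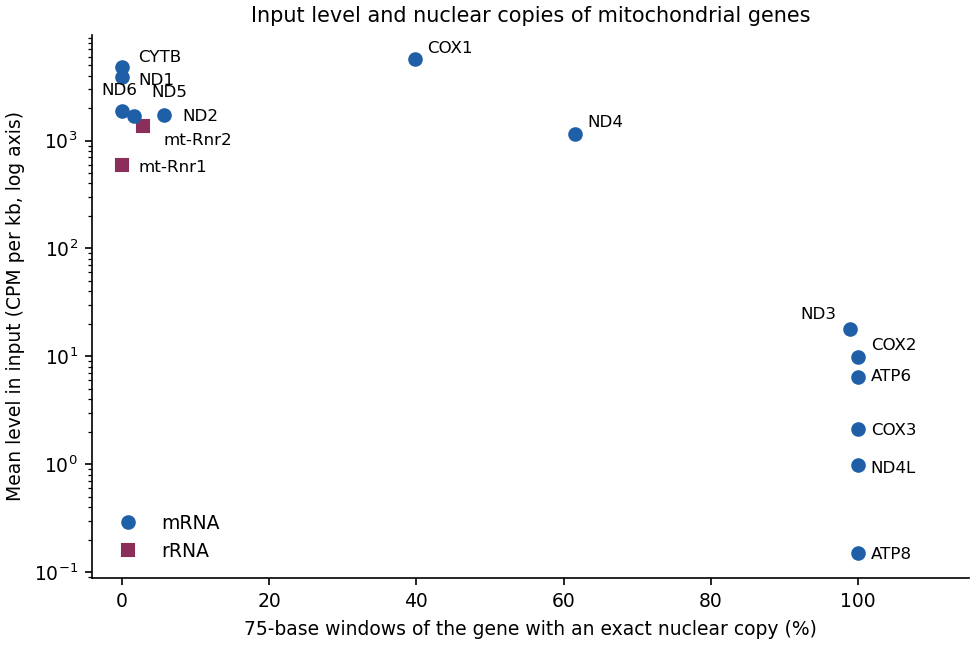
Mean level of each of the 15 genes in the 3 input libraries, in CPM per kb of gene on a log axis, against the percentage of the gene's 75-base windows that occur exactly in a nuclear chromosome. Circles are mRNAs and squares rRNAs, and the 6 mRNAs at 98.9% or 100% all sit below every other gene.

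Relative to the other RNAs of the same libraries, all mitochondrial RNAs that could be tested were depleted in the p-UPF1 precipitate. Together the 15 genes took 2.78% ± 0.0405 of the input counts, 2.26% ± 0.0887 of the IgG counts and 0.0813% ± 0.00449 of the p-UPF1 counts (SD, n = 3). The share in p-UPF1 libraries was 34.1-fold below input and 27.8-fold below IgG, and no p-UPF1 library came near a library of another group. The mRNAs as a class took 2.51% ± 0.0336, 2.14% ± 0.0946 and 0.0740% ± 0.00364, and the rRNAs 0.266% ± 0.00687, 0.118% ± 0.00789 and 0.00728% ± 0.00118, in the same order (SD, n = 3). For each of these shares an exact two-sided permutation test gave p = 0.1 in all 3 comparisons, the smallest value that 3 against 3 libraries allow.

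After the filter on low counts, 13129 genes were tested, 14 of the 15 mitochondrial genes among them. ATP8, which encodes a small subunit of the ATP synthase, had 1 count in each of 2 input libraries and 0 in all other libraries, and was not tested. In p-UPF1 over IgG, all 14 were lower in edgeR's quasi-likelihood test, against 42.2% of all genes tested that were lower and 40.4% that were higher. In p-UPF1 over input, again all 14 were lower, against 42.6% of all genes lower and 40.8% higher. Both comparisons share the p-UPF1 libraries. The median log2 fold change (Log2FC) of the 14 was -4.52 over IgG and -5.35 over input, where the median over all genes was -0.03 in both. In the order of Log2FC over IgG, 14 of the 14 were among the 100 lowest genes, and over input 13 of the 14, with ND4L the exception. The same 14 calls were made with DESeq2's size factors, upper-quartile factors or library size alone. They were also made without the low-count filter, which ND4L passed only through IgG and COX3 only through input. When libraries were scaled to equal mitochondrial mRNA instead, the median of all genes moved to 4.66 over IgG and 5.00 over input, 99.4% of genes were called higher in p-UPF1 in either comparison, and of the 14 mitochondrial genes 3 were called lower and 4 higher over IgG, and 5 lower and 2 higher over input, so the depletion is a statement relative to the bulk of the other RNAs.

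**Figure D2:**
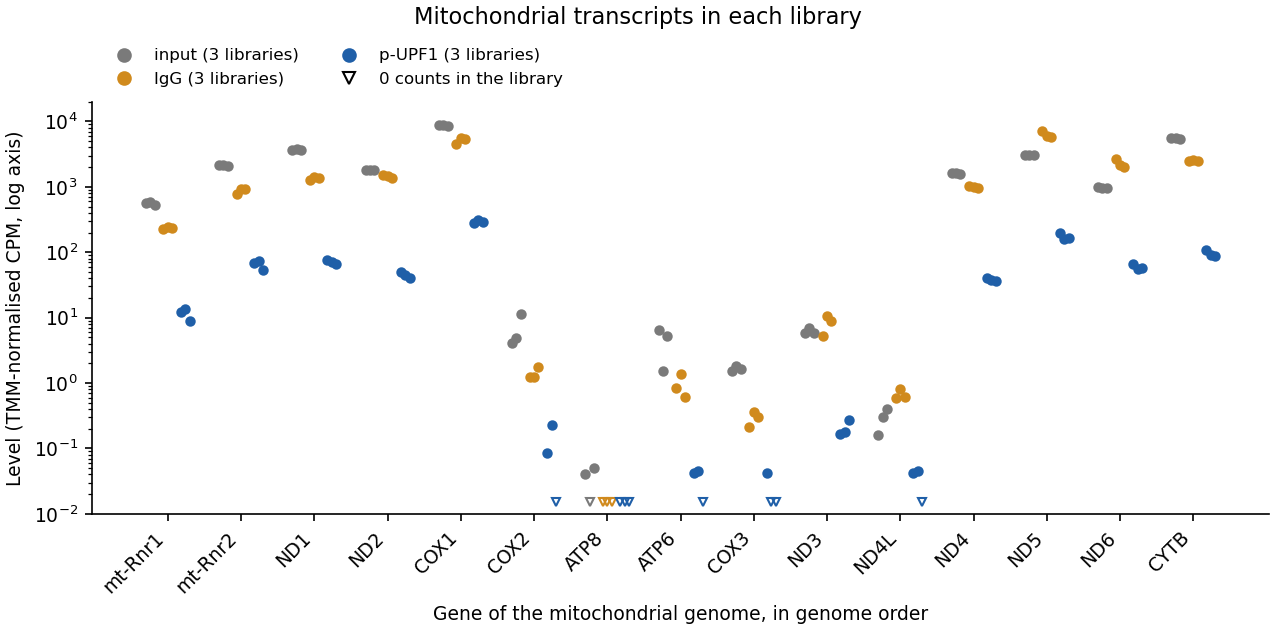
Level of each mitochondrial gene in each of the 9 libraries, in TMM-normalised CPM on a log axis, with genes in genome order. Each filled point is 1 library and an open triangle marks a library with 0 counts, and for every gene but ATP8 the p-UPF1 points lie below all IgG and input points.

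The rRNAs form the RNA core of the mitochondrial ribosome. The 12S rRNA gene mt-Rnr1 (Gene ID 17724, MT:70-1024) stood at 573, 583 and 530 CPM in the input libraries, 223.5, 246 and 232 in the IgG libraries and 12.3, 13.5 and 9.02 in the p-UPF1 libraries. For the 16S rRNA gene mt-Rnr2 (Gene ID 17725, MT:1094-2675) the values were 2156, 2192 and 2086 CPM in input, against 788, 934 and 915 in IgG and 67.5, 73.0 and 53.8 in p-UPF1. Neither gene had overlapping groups in any comparison, and the precipitates of p-UPF1 were lowest. How many of all tested genes had separate groups was not counted, here or for the genes below. Log2FC of p-UPF1 over IgG was -4.33 ± 0.09 (SE) for mt-Rnr1 (adjusted P = 1.51e-16) and -3.76 ± 0.09 for mt-Rnr2 (adjusted P = 6.2e-16, quasi-likelihood test in edgeR, Benjamini-Hochberg correction over all genes tested). Over input it was -5.59 ± 0.09 and -5.05 ± 0.09. The ratio between both rRNAs was also different, as mt-Rnr1 had 26.2 ± 0.691 counts per 100 of mt-Rnr2 for input, 26.7 ± 1.54 for IgG and 17.8 ± 0.950 for p-UPF1 (SD, n = 3, exact permutation p = 0.1 for p-UPF1 against either group and 0.9 for IgG against input). Whether rRNA was removed before the RIP-seq libraries were made is not stated, so ratios of rRNA to mRNA are compared here only between groups.

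COX1 and CYTB were the most abundant mitochondrial mRNAs per kb in input. COX1 (Gene ID 17708, MT:5328-6872), the catalytic subunit of complex IV, had 8817, 8905 and 8486 CPM in input, against 4530, 5599 and 5421 in IgG and 276, 313 and 290 in p-UPF1. CYTB (Gene ID 17711, MT:14145-15288), the cytochrome b of complex III, had 5556, 5662 and 5452 CPM in input, against 2524, 2552 and 2453 in IgG and 109, 90.3 and 86.6 in p-UPF1. For both genes the 3 groups were separate, with input highest and p-UPF1 lowest. The p-UPF1 mean was 3.35% of the input mean for COX1 and 1.71% for CYTB. Log2FC over IgG was -4.15 ± 0.07 for COX1 (adjusted P = 1.81e-17) and -4.72 ± 0.07 for CYTB (adjusted P = 3.72e-18, edgeR).

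Among the complex I subunits, ND1, ND2 and ND4 followed the same order of groups. ND1 (Gene ID 17716, MT:2751-3707) had 3697, 3833 and 3620 CPM in input, against 1261, 1423 and 1367 in IgG and 77.0, 70.8 and 65.9 in p-UPF1. ND2 (Gene ID 17717, MT:3914-4951) had 1812, 1839 and 1779 CPM in input, against 1536, 1484 and 1357 in IgG and 50.8, 45.5 and 40.6 in p-UPF1. ND4 (Gene ID 17719, MT:10167-11544) had 1600, 1610 and 1587 CPM in input, against 1014, 999.8 and 958 in IgG and 40.8, 37.2 and 35.8 in p-UPF1. Thus IgG kept 80.6% of the input level of ND2, 62.0% of ND4 and 36.3% of ND1, while p-UPF1 kept 2.52%, 2.37% and 1.92%. Log2FC over IgG was -5.00 ± 0.07 for ND2, -4.71 ± 0.05 for ND4 and -4.24 ± 0.06 for ND1, all with adjusted P of 3.52e-18 or lower in edgeR's test.

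ND5 and ND6 were the abundant mRNAs that stood higher in IgG than in input. ND5 (Gene ID 17721, MT:11742-13565), a large proton-pumping subunit of complex I, had 3108, 3104 and 3118 CPM in input, against 7173, 5990 and 5779 in IgG and 194, 160 and 167 in p-UPF1. ND6 (Gene ID 17722, MT:13552-14070), the subunit encoded on the - strand, had 980, 973 and 952 CPM in input, against 2626, 2172 and 2044 in IgG and 65.5, 56.1 and 57.9 in p-UPF1. In both genes every IgG library lay above every input library, with IgG A the highest, and every p-UPF1 library lay below both groups. Log2FC of IgG over input was 1.02 ± 0.07 for ND5 (adjusted P = 1.25e-08) and 1.24 ± 0.07 for ND6 (adjusted P = 1.94e-09, edgeR). In p-UPF1 over IgG, their Log2FC of -5.18 ± 0.09 and -5.25 ± 0.09 were the lowest among the abundant mRNAs, whereas over input their -4.16 ± 0.08 and -4.02 ± 0.08 were the least negative of that set. The 14 bases that both genes share, shown above, make up a small part of either gene.

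The scarce mRNAs rest on few counts in the p-UPF1 libraries. COX2 (Gene ID 17709, MT:7013-7696), which carries the first copper centre of complex IV, had 4.10, 4.84 and 11.4 CPM in input, against 1.22, 1.22 and 1.74 in IgG and 0.0843, 0.226 and 0 in p-UPF1, so input C was the highest. ND3 (Gene ID 17718, MT:9459-9806), a small subunit of complex I, had 5.80, 7.06 and 5.86 CPM in input, against 5.31, 10.5 and 8.82 in IgG and 0.169, 0.181 and 0.272 in p-UPF1, with input and IgG overlapping. ATP6 (Gene ID 17705, MT:7927-8607), a subunit of the proton channel of the ATP synthase, had 6.49, 1.51 and 5.20 CPM in input, against 0.850, 1.38 and 0.616 in IgG and 0.0421, 0.0451 and 0 in p-UPF1. For these 3 genes every p-UPF1 library was below all others.

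COX3 (Gene ID 17710, MT:8607-9390), a core subunit of complex IV, summed to 106 counts over the input libraries, 17 over IgG and 1 over p-UPF1. ND4L (Gene ID 17720, MT:9877-10173), a small subunit of complex I, summed to 18, 39 and 2, and ATP6 to 292, 55 and 2. By scaled sums, the p-UPF1 level was 5.01% of IgG for COX3 (exact 95% interval 0.12% to 32.0%), 4.37% for ND4L (0.511% to 16.9%) and 3.10% for ATP6 (0.366% to 11.7%), where the intervals cover counting error only. COX2 with 7 counts and ND3 with 14 counts in p-UPF1 stood at 7.36% (2.87% to 15.9%) and 2.50% (1.36% to 4.24%) of IgG. The fitted Log2FC of these 5 ran from -5.28 (ND3) to -3.69 (COX2) over IgG with SE of 0.34 to 1.01, and depends on the prior count of 0.125 where counts are near 0. Leaving out p-UPF1 B moved COX2 to -4.82 over IgG and -7.09 over input, and leaving out p-UPF1 A moved COX3 to -5.63 and -8.11. In the other direction, COX2 stood at -3.14 over IgG without p-UPF1 C, and COX3 at -3.43 without p-UPF1 B or C. The range of these 5 in the full fit overlapped that of the 7 abundant mRNAs, -5.25 to -4.15.

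**Figure D3:**
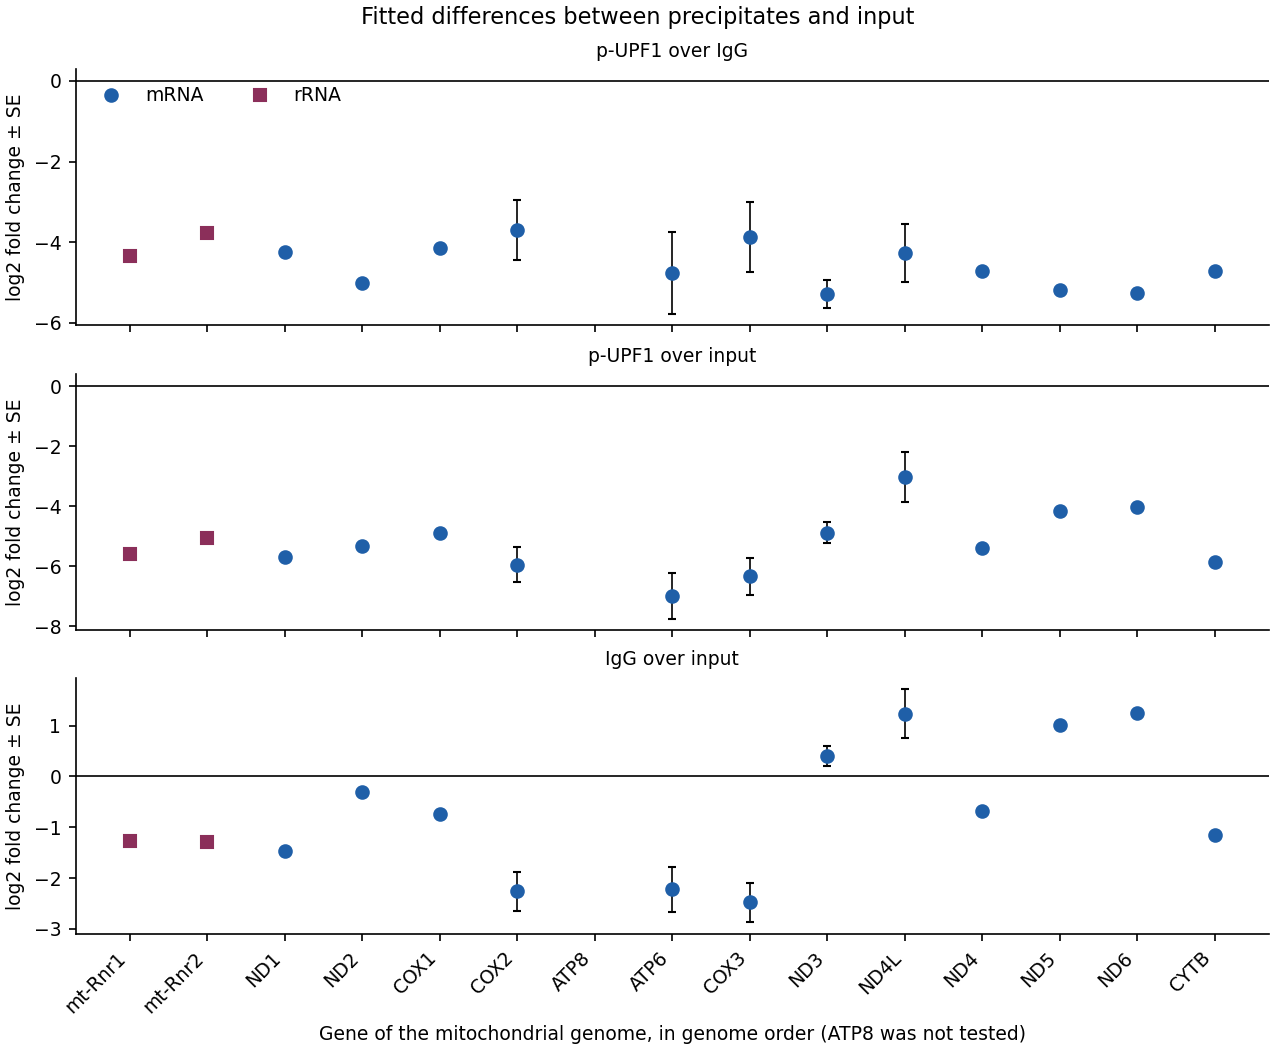
Log2FC with its SE for the 14 tested mitochondrial genes in genome order (circles mRNAs, squares rRNAs), with p-UPF1 over IgG in the top panel, p-UPF1 over input in the middle and IgG over input at the bottom. Under the TMM scaling shown, every gene is below 0 in both p-UPF1 panels, whereas scaling to equal mitochondrial mRNA calls 4 higher over IgG and 2 over input, and in IgG over input ND3, ND4L, ND5 and ND6 lie above 0, of which ND3 did not pass the test.

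IgG over input compares the control precipitate with the lysate, relative to the other RNAs of each library. In it, 10 of the 14 genes were lower, against 34.7% of all genes tested, and 3 were higher (ND4L, ND5 and ND6), against 18.2%. Of these, ND4L passed the low-count filter only through IgG and COX3 only through input. Each was high in the group that let it into the test, so these calls add no support. The median Log2FC of the 14 was -0.95, and that of all genes -0.10. COX3, COX2 and ATP6 had the most negative values, -2.48 ± 0.39, -2.26 ± 0.38 and -2.22 ± 0.44, and ND1 the most negative among the abundant mRNAs, -1.46 ± 0.05 (adjusted P = 9.96e-12). Without input C, where COX2 was highest, COX2 stood at -1.68. CYTB stood at -1.15 ± 0.06, COX1 at -0.75 ± 0.06, ND4 at -0.69 ± 0.04 and ND2 at -0.31 ± 0.06 (adjusted P = 0.000261, edgeR). ND3 had a Log2FC of 0.40 ± 0.20 and did not pass (adjusted P = 0.104, edgeR), but passed without IgG A (0.62, adjusted P = 0.000741). ND4L stood at 1.23 ± 0.48 (adjusted P = 0.0405, edgeR) and lost the call when any 1 input library, IgG B or any 1 p-UPF1 library was left out (adjusted P = 0.0509 to 0.203). Its call was also lost with DESeq2 (adjusted P = 0.116) and without the low-count filter (1.30, adjusted P = 0.134, edgeR).

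By strand, the 12 mRNAs of the + strand took 2.41% ± 0.0326 of input counts, 1.90% ± 0.0608 of IgG counts and 0.0683% ± 0.00324 of p-UPF1 counts (SD, n = 3). ND6 on the - strand took 0.0953% ± 0.00149, 0.243% ± 0.0363 and 0.00570% ± 0.000499. The + strand mRNAs were therefore 35.3-fold and ND6 16.7-fold lower in p-UPF1 than in input, and 27.8-fold and 42.7-fold lower than in IgG. Among the 6 abundant mRNAs of the + strand, ND5 alone was higher in IgG than in input, as ND6 was. Of the scarce ones ND4L was called higher as well, but it passed the low-count filter only through IgG. Without that filter ND4L was not called (adjusted P = 0.134, edgeR). Input held 31.1 ± 0.534 ND6 counts per 100 ND5 counts, IgG 36.1 ± 0.642 and p-UPF1 34.5 ± 0.638, and the libraries of the 3 groups did not overlap (exact permutation p = 0.1 for each pair, the smallest possible). With 1 gene on the - strand, strand and gene cannot be told apart. Strand here is that of the annotated gene. Whether the counting used strand is not stated, so ND6 counts may include RNA of the + strand.

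The make-up of the mitochondrial mRNA differed between the 3 groups as well as its amount. ND5 and ND6 together made up 16% ± 0.276 of mitochondrial mRNA counts for input, 42.7% ± 4.08 for IgG and 30% ± 1.98 for p-UPF1 (SD, n = 3). The IgG libraries stood at 47.4%, 40.3% and 40.3%, so IgG A was highest, and the p-UPF1 libraries stood at 31.9%, 28.0% and 30.2%. CYTB made up 21.8% ± 0.058, 12.5% ± 0.245 and 12.2% ± 0.977, and ND1 14.6% ± 0.183, 6.73% ± 0.543 and 9.16% ± 0.302, in input, IgG and p-UPF1. COX1 held 34.2% ± 0.282, 25.8% ± 3.41 and 37.8% ± 3.40 in the same order. Exact permutation tests of these shares gave p = 0.1 except for CYTB in p-UPF1 against IgG (p = 0.8) and COX1 in p-UPF1 against input (p = 0.3). Input held 10.6 ± 0.133 rRNA counts per 100 mRNA counts, IgG 5.55 ± 0.566 and p-UPF1 9.81 ± 1.37 (SD, n = 3), with an exact permutation p of 0.4 for p-UPF1 against input and 0.1 for the other pairs.

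**Figure D4:**
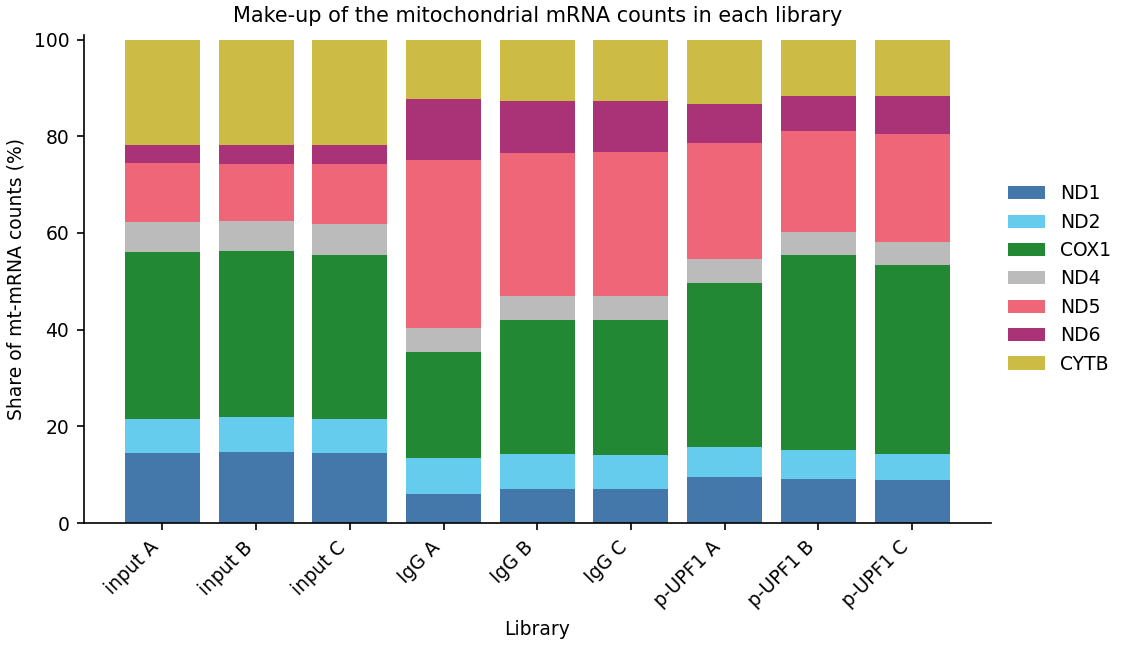
Share of each library's mitochondrial mRNA counts, in percent, held by the 7 abundant mRNAs, 1 bar per library. The other 6 mRNAs are too few to be seen, and the ND5 and ND6 segments together take on average 16% of an input bar, 42.7% of an IgG bar and 30% of a p-UPF1 bar.

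To test this make-up, the same model was fitted with each library scaled to its own mitochondrial mRNA count, so that a Log2FC is relative to the pool of these mRNAs. Since the genes form the pool, a rise of one lowers the rest. In p-UPF1 over IgG, ND2, ND5 and ND6 were lower relative to the pool and mt-Rnr1, mt-Rnr2, ND1 and COX1 higher, where 0.0305% of all genes tested were lower and 99.4% higher. The Log2FC was -0.49 ± 0.07 for ND5 (adjusted P = 1.88e-06), -0.56 ± 0.07 for ND6 (adjusted P = 4.7e-07) and 0.93 ± 0.09 for mt-Rnr2 (adjusted P = 4.98e-09, edgeR). In p-UPF1 over input, mt-Rnr1, ND1, ND2, ND4 and CYTB were lower and ND5 and ND6 higher, where 0.0533% of all genes were lower and 99.4% higher. ND5 stood at 0.87 ± 0.07 (adjusted P = 3.73e-10), ND6 at 1.02 ± 0.07 (adjusted P = 5.15e-11) and CYTB at -0.83 ± 0.06 (adjusted P = 1.11e-10, edgeR). In IgG over input, 9 of the 14 were lower and ND3, ND4L, ND5 and ND6 higher, against 8.33% and 46.6% of all genes, with ND5 at 1.36 ± 0.07 (adjusted P = 5.47e-11) and ND6 at 1.58 ± 0.07 (adjusted P = 8.99e-12, edgeR). With DESeq2 the calls of ATP6, COX3, ND3 and ND4L in that comparison were lost. ND5 and ND6 were thus above input in both precipitates relative to the pool, and lower in p-UPF1 than in IgG.

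The stop codon letters shown above did not divide the Log2FC into separate ranges over IgG. The 3 mRNAs with a bare T ran from -4.72 to -3.86 over IgG, inside the -5.28 to -3.69 of the 9 tested mRNAs with a whole stop codon. Over input the ranges were -6.33 to -5.40 and -6.98 to -3.03. By complex, the 7 complex I mRNAs ran from -5.28 to -4.24 over IgG, and the 3 complex IV mRNAs from -4.15 to -3.69. The gap over IgG was small, between ND1 at -4.24 ± 0.06 and COX1 at -4.15 ± 0.07, and the scarce mRNAs crossed it. Over IgG, COX2 stood at -4.82 without p-UPF1 B, COX3 at -5.63 without p-UPF1 A and ND4L at -3.77 without p-UPF1 C. Over input the ranges of complex I and complex IV were -5.70 to -3.03 and -6.33 to -4.90. These ranges are descriptions with no test.

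The respiratory complexes also hold subunits encoded in the nucleus, whose mRNAs are translated in the cytoplasm. The list used is partial, as for complex I it holds only 7 core subunits and no accessory ones. Of 42 such genes listed, 40 were tested, and all 40 were lower in p-UPF1 than in IgG and than in input, against the 42.2% and 42.6% of all genes given above. Their median Log2FC was -2.54 over IgG, within a range of -3.49 to -0.83, which did not overlap the -5.28 to -3.69 of the tested mitochondrial mRNAs. The upper end of the mitochondrial range rests on COX2 and COX3, with 7 and 1 counts in p-UPF1. COX2 moved to -3.14 without p-UPF1 C, and COX3 to -3.43 without p-UPF1 B or C. These values lie inside the nuclear range of the full fit. Over input the median of the 40 was -3.18 and their range, -4.51 to -0.49, overlapped that of ND4L, ND5 and ND6. In complex I, Ndufv2 had means of 146, 100 and 15.8 CPM in input, IgG and p-UPF1 and a Log2FC of -2.67 over IgG, and Ndufs1, an iron-sulphur subunit, had 85.3, 108 and 60.7 CPM and -0.83. Over IgG, Uqcrb and Uqcr10 of complex III stood at -2.97 and -1.38, and Cox7b and Cox5a of complex IV at -3.49 and -2.40. In the ATP synthase, Atp5e, the epsilon subunit of the catalytic part, had 114, 52.2 and 5.00 CPM and -3.39, and Atp5a1, the alpha subunit, 1110, 922 and 337 CPM and -1.45. In IgG over input, 38 of the 40 were lower and 1 was higher, against 34.7% and 18.2% of all genes, and the median was -0.55, against -0.10 for all genes. Scaled to equal mitochondrial mRNA, 22 were lower and 4 higher in IgG than in input, against 8.33% and 46.6% of all genes. Relative to the pool of mitochondrial mRNA, all 40 were higher in p-UPF1 than in IgG, as were 99.4% of all genes, and their median Log2FC of 2.16 was below the 4.66 of all genes.

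The nuclear genes whose products transcribe, cut, stabilise and translate mitochondrial RNA went both ways. Of 59 tested, 23 were higher and 31 lower in p-UPF1 than in IgG, with a median Log2FC of -0.19, where 40.4% of all genes were higher and 42.2% lower. Against input, 23 were higher and 29 lower, with a median of -0.14, where 40.8% of all genes were higher and 42.6% lower, while scaling to equal mitochondrial mRNA put all 59 higher in both comparisons, as it did 99.4% of all genes. Counts in the 4 lists below stand against the same shares over IgG. Among transcription and replication factors, 7 were higher and 8 lower over IgG. Mgme1, an exonuclease of mitochondrial DNA, had means of 19.1, 23.4 and 113 CPM in input, IgG and p-UPF1 (Log2FC 2.27 ± 0.06 over IgG), and Ssbp1, the mitochondrial single-stranded DNA-binding protein, 39.7, 32.7 and 8.36 CPM (-1.97 ± 0.07). Among RNA processing and modification factors, 9 were higher and 8 lower. Trit1, which modifies tRNAs, had 19.8, 19.2 and 65.0 CPM (1.76 ± 0.07), and Hsd17b10, a subunit of mitochondrial RNase P, 62.3, 48.9 and 9.31 CPM (-2.39 ± 0.07). Of the stability and decay factors, 3 were higher and 5 lower over IgG. Mtpap, the mitochondrial poly(A) polymerase, had 58.1, 40.4 and 62.6 CPM (0.63 ± 0.05 over IgG, but 0.11 over input with adjusted P = 0.0663 in edgeR's test), and Slirp, which binds and stabilises mitochondrial mRNAs together with Lrpprc, 22.8, 16.8 and 1.78 CPM (-3.23 ± 0.14). The translation factors had 4 higher and 10 lower. Mtif3, an initiation factor, had 14.7, 15.7 and 80.2 CPM (2.36 ± 0.06), and Ict1, which releases stalled mitochondrial ribosomes, 21.6, 18.5 and 3.50 CPM (-2.40 ± 0.10). In IgG over input, 9 of the 59 were higher and 19 lower, against 18.2% and 34.7% of all genes. Scaled to equal mitochondrial mRNA, 35 were higher and 0 lower, against 46.6% and 8.33% of all genes.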

How the data were processed

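RIP-seq libraries of activated splenic B cells were analysed from 1 deposited table of raw counts per gene and library. Per the labels, the authors used cutadapt, HISAT2 and featureCounts with mm10. Versions, strand setting, read length and the treatment of multiply mapped reads are not given in the sources used here for RIP-seq. The labels call the molecule polyA RNA. The mitochondrial genes, the gene lists and the tests were chosen with earlier results of these data known.

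Gene identifiers were located in the RefSeq annotation of GRCm38. edgeR 4.0.16 in R 4.3.3 was used as the main test: filterByExpr (minimum count 10, minimum total 15) kept 13129 genes with 99.9% of counts, libraries were scaled by TMM, and a model of the 3 groups was fitted to all 9 libraries (6 residual degrees of freedom). Each contrast was tested two-sided by the quasi-likelihood test (glmQLFit, glmQLFTest) with Benjamini-Hochberg adjustment over all tested genes at 0.05. SE was derived from the test statistic. Count columns carry letters and the labels numbers, so columns were assigned to groups only. Library totals of 17372510 to 24945286 set the precision, and the counts had no molecular identifiers. The exact intervals were computed on counts summed over the libraries of a group. They therefore cover counting error only and not the spread between libraries.

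The second scaling set each library size to its mitochondrial mRNA count. MT was aligned to the nuclear chromosomes with BLAST+ 2.17.0. Genes named were all mitochondrial genes of the table and, per list of nuclear genes with mitochondrial roles, the highest and lowest Log2FC of p-UPF1 over IgG at a mean of at least 5 CPM. Alternatives were DESeq2 1.42.0, limma-voom (limma 3.58.1), other scalings and filters, the 2 groups compared alone, and leaving out each library. TMM with an input or an IgG reference library, and a block by column letter, were added after the data were seen.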

Additional observations from a re-analysis of the deposited data

How the results depend on the processing

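Across the 20 alternatives other than scaling to equal mitochondrial mRNA, 820 of 835 values of the 42 Log2FCs kept their direction and side of the threshold, and the other 15 all belonged to ND3 or ND4L in IgG over input. ND3 there passed with library size alone (0.51), without the filter (0.49), without IgG A (0.62) and with TMM on an input or IgG reference (0.50 each). Scaling to equal mitochondrial mRNA left, of the 14 lower calls in each p-UPF1 comparison, 3 against IgG and 5 against input, by its construction. It turned the sign in p-UPF1 over IgG of mt-Rnr1 (0.36), mt-Rnr2 (0.93), ND1 (0.45), COX1 (0.55), COX2 (0.92), COX3 (0.36) and ND4L (0.17), in p-UPF1 over input of COX1 (0.14), ND3 (0.12), ND4L (1.73), ND5 (0.87) and ND6 (1.02), and in IgG over input of ND2 (0.03). Of these, COX2, COX3 and ND4L over IgG did not pass (adjusted P = 0.378, 0.814 and 0.883, edgeR) and turned again when 1 p-UPF1 library was left out (COX3 -5.41 without A, COX2 -0.32 without B, ND4L -0.17 without A and -0.26 without B), and COX1, ND3 and ND4L over input and ND2 in IgG over input did not pass either. Leaving out the 8 mRNAs with a close nuclear copy (at least 50% of the gene at 97% identity or more) kept both rRNAs, ND1, ND2, ND5, ND6 and CYTB, of which 7 were lower in each p-UPF1 comparison and 5 lower in IgG, since fewer genes were counted. The median Log2FC of the tested mRNAs, -4.71 in p-UPF1 over IgG, was -4.87 with library size alone, -4.85 with upper-quartile factors, -4.52 with limma-voom, -0.02 with equal mitochondrial mRNA, -5.00 over the 5 mRNAs without close copies, and -4.93 to -4.46 when 1 library was left out. Over input it was -5.35, -0.32 with equal mitochondrial mRNA, -5.18 without the filter, and -5.41 to -5.30 when 1 library was left out. In IgG over input it was -0.72, and -0.61 with library size alone, -0.65 with upper-quartile factors, -0.38 with equal mitochondrial mRNA, -0.67 without the filter, -0.62 with the 2 groups alone and with either TMM reference, and -0.31 over those 5 mRNAs. The mRNA share of input was 2.58% when counts of chromosome MT were left out of the denominator. Relative to the pool, DESeq2 called 2 genes higher in IgG than in input, where edgeR called 4, and 7 lower, where edgeR called 9 (ATP6 adjusted P = 0.0661, COX3 0.153, ND3 0.166, ND4L 0.351, DESeq2), and ND4L was also lost without the filter and without input A. The cause of the shifts other than by construction was not tested. The count columns carry the same letters in each group, while the labels carry numbers. Same-lettered libraries deviated together weakly at most (Pearson correlation of deviations from group means, across genes, -0.0051 to 0.0542 over 9 pairs). Pairs of different letters ran from -0.056 to 0.0222. By the methods, input and precipitates are parts of a lysate, and these values cannot tell whether a letter marks a shared lysate. The letters were not taken as pairs in the main fit. A replicate block by letter, added after the data were seen, left 14, 14 and 10 members lower and moved those higher in IgG over input from 3 to 2 (ND4L adjusted P = 0.0619, edgeR), with medians of -4.72, -5.36 and -0.72. Relative to the pool, COX1 joined the genes higher in p-UPF1 than in input under the block, without the filter, without IgG A and without p-UPF1 A, ATP6 joined those lower than in input without the filter and without input B, and ND3 joined those lower than in IgG without IgG A. The 6 scarce mRNAs had 0 to 14 counts in all p-UPF1 libraries together, which limits the precision of their values, and why they are scarce was not tested.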
